A study of Arabidopsis thaliana with 12 samples.

Results

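The transcripts described here encode stromal enzymes that are linked to the thioredoxin system of the Arabidopsis thaliana chloroplast. They were chosen by gene name in the platform's probe table. PRK (AT1G32060), SBPASE (AT3G55800), NTRC (AT2G41680) and AT3G52960 each had a probe listing that gene alone. These 4 genes gave 4 measured values among the 3439 probes of the array, of which 692 list a single gene. The samples were total RNA, 6 from soil-grown pete2 mutants, which lack an isoform of plastocyanin, and 6 from soil-grown wild-type (WT) plants, both of ecotype Columbia 0. The labels name neither the organ, the age and the light regime nor the allele of pete2, and they do not say whether the numbered samples came from separate plants. The p-values set a difference between the groups only against the variation among these samples, and that variation may be technical. In such bulk RNA, fewer cells of a type and less transcript per cell cannot be told apart.

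Plastocyanin carries electrons to photosystem I, which reduces ferredoxin. Ferredoxin-thioredoxin reductase passes part of these electrons to stromal thioredoxins, and the thioredoxins switch enzymes on in the light by reducing their disulfide bonds. PRK and SBPASE encode phosphoribulokinase and sedoheptulose-bisphosphatase, enzymes of the Calvin cycle that regenerate its carbon dioxide acceptor and are activated in this way. NTRC joins an NADPH-dependent reductase and a thioredoxin domain in 1 protein. The thioredoxin switch acts on proteins, whereas the array measured transcripts.

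The deposited values are linear intensities from 0 to a ceiling near 100, and a value at 0 is no measured level. The share of probes at 0 ran from 17.1% to 30.7% in pete2 and from 15.7% to 17.8% in WT, and median intensities ran from 0.0543 to 0.183 in pete2 and from 0.129 to 0.193 in WT. Without scaling, the median of the log2 differences, pete2 minus WT, was -0.63 across the tested probes. Scaled values and ranks are therefore given beside deposited ones. Within each group, samples 1 and 2, 3 and 4, and 5 and 6 were often close, and tests were repeated with these pairs averaged. No probe used here is named for a plastocyanin gene, and the genotype was not checked against the data. None of the 9 markers of flowers, guard cells, phloem, roots, dividing cells and senescence had a value (0 of 9), so the make-up of the tissue was not tested.

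None of the 4 genes passed the test across all probes (limma, Benjamini-Hochberg adjusted p at 0.05), although 11.2% of the 3321 probes tested and 12.2% of the 665 tested probes with a single gene did. These counts take the 12 samples as independent. Of the 3321 probes 372 passed, against 168 with pairs of samples as a random block and 11 with pairs averaged. Over all probes 163 rose and 209 fell, a split that was 60 and 385 without scaling. AT3G52960 and SBPASE held values at 0. PRK and NTRC, above 0 in every sample, had intervals that included no change.

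PRK had deposited intensities of 1.52 to 2.54 (median 1.94) in pete2 and of 1.15 to 3.75 (median 2.14) in WT. The pete2 range lay inside the WT range. The WT samples spanned more, with samples 3 and 4 highest (3.05 and 3.75) and samples 5 and 6 lowest (1.15 and 1.26). In pete2, samples 3 and 4 were also highest (2.54 and 2.49) and sample 1 was lowest. Samples of the same pair differed by a mean of 0.153 on the log2 scale, against 0.687 for samples of different pairs of a group. The mean deposited intensity was 2.05 ± 0.395 in pete2 and 2.25 ± 1.01 in WT (SD, n = 6 each, two-sided exact permutation p = 0.669, Benjamini-Hochberg 0.852 over all probes). After quantile normalization the means were 2.22 ± 0.441 in pete2 and 1.95 ± 0.797 in WT (SD, n = 6 each). The log2 difference was 0.28 ± 0.283 (SE), with a 95% confidence interval of -0.33 to 0.89 and an adjusted p of 0.542. That interval corresponds to 0.794-fold to 1.86-fold. The sign was not settled, since the value was -0.03 without scaling and -0.14 without WT samples 5 and 6. Of the tested probes 19.8% had a lower residual SD than PRK, against 47.9% for NTRC.

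SBPASE was listed at 0 in 10 of 12 samples. It was above 0 in pete2 samples 1 and 6, at 0.0537 and 0.0255, and at 0 in the other 4 pete2 samples and in all 6 WT samples. The counts of zeros, 4 of 6 in pete2 and 6 of 6 in WT, gave a two-sided Fisher's exact p of 0.455, the smallest that 2 values above 0 among 12 samples allow, so the test could not pass. Over the array, 353 probes or 10.3% were at 0 in at least as many samples. The log2 difference of 1.11 ± 0.676 (SE, adjusted p = 0.321) compares 2 measured values with the floor that replaces zeros. With a higher floor at the 10th percentile of positive values (0.0437) it was 0.17. That floor also replaced the normalized value of pete2 sample 1, 0.0366, so the 0.17 rests on pete2 sample 6 alone. Since all 6 WT samples were at the floor and the probe was kept through pete2 alone, the log2 difference could not be negative. The probe therefore leaves the level of SBPASE in pete2 and WT unresolved.

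**Figure D1:**
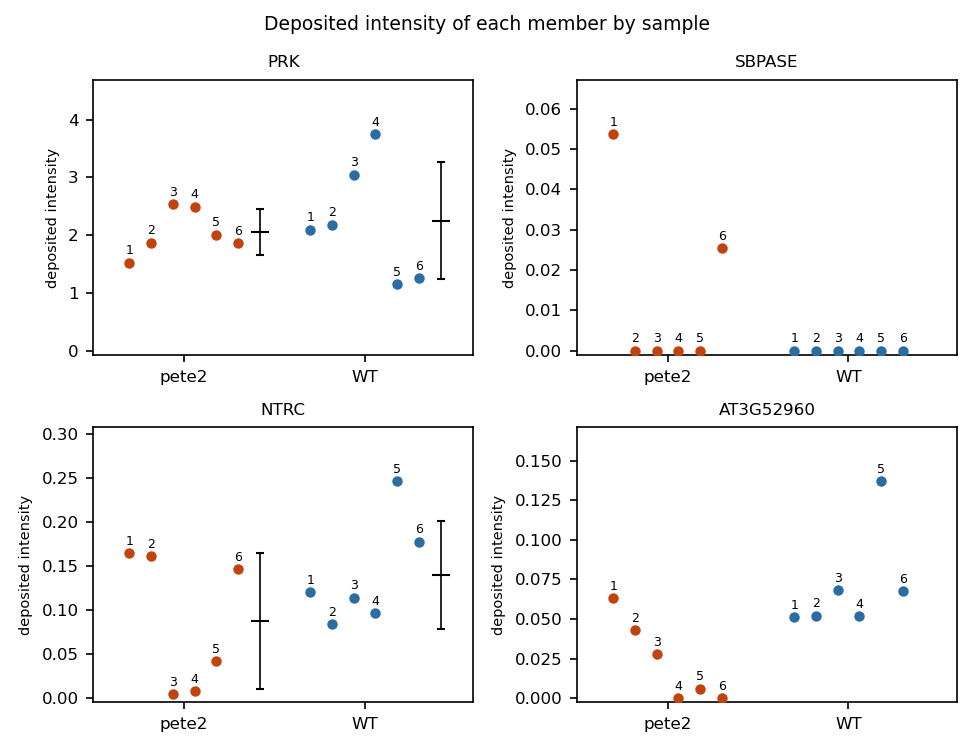
Deposited intensity (linear axes from 0) of PRK, SBPASE, NTRC and AT3G52960 in each pete2 and WT sample, numbered by replicate, with mean and SD (n = 6) where no sample was at 0. The WT samples 5 and 6 lie lowest for PRK (1.15 and 1.26) and highest for NTRC (0.246 and 0.178), and SBPASE is at 0 in 10 of 12 samples.

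NTRC had deposited intensities of 0.00464 to 0.164 (median 0.0943) in pete2 and of 0.0842 to 0.246 (median 0.117) in WT. In pete2, samples 3 and 4 were lowest, at 0.00464 and 0.00769, while samples 1, 2 and 6 lay at 0.164, 0.161 and 0.146, within the WT range. In WT, samples 5 and 6 were highest, at 0.246 and 0.178, where PRK was lowest. The deposited means were 0.0878 ± 0.0776 in pete2 and 0.140 ± 0.0613 in WT (SD, n = 6 each, two-sided exact permutation p = 0.223, Benjamini-Hochberg 0.443 over all probes). That difference, -0.0521, was -0.0308 without WT sample 5 and -0.0160 without WT samples 5 and 6 (exact permutation p = 0.695). The normalized means were nearly equal, 0.116 ± 0.0925 in pete2 and 0.113 ± 0.0392 in WT (SD, n = 6 each). The log2 difference was -0.34 ± 0.578 (SE, adjusted p = 0.729), with a 95% confidence interval of -1.60 to 0.91. The difference of the normalized means and the log2 difference had opposite signs.

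AT3G52960, which the platform's probe table names by locus only, is labelled PRXIIE in the list of plastid peroxide and superoxide removal. Its deposited intensities ran from 0 to 0.0631 (median 0.0167) in pete2 and from 0.0509 to 0.137 (median 0.0597) in WT. Samples 4 and 6 of pete2 were at 0, and 5 of 6 pete2 samples lay below the lowest WT sample. The exact permutation p of the deposited difference was 0.0152 and the Benjamini-Hochberg value 0.0824 over all probes, where 13.7% of probes passed at 0.05. That test takes the 12 samples as independent. With pairs of samples averaged the exact permutation p was 0.2 (Benjamini-Hochberg 0.624), where 0.1 is the smallest possible. Scaling narrowed the gap. After normalization 3 of 6 pete2 samples lay below the lowest WT sample, and the log2 difference was -1.17 ± 0.703 (SE, adjusted p = 0.317, 95% confidence interval -2.69 to 0.36). Raising the floor to the 10th percentile (0.0437) gave -0.15. That floor also replaced measured normalized values, those of pete2 samples 1 and 2 (0.0418 and 0.0299) and WT samples 4 and 6 (0.0369 and 0.0383). The smaller difference is therefore not due to the zeros alone. The pete2 samples with the lowest values, 4, 5 and 6, also had more zeros over the whole array than every WT sample. So did pete2 sample 3 (21.6% of probes at 0), where AT3G52960 was higher, at 0.0276. The part of these zeros in the result was not tested.

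**Figure D2:**
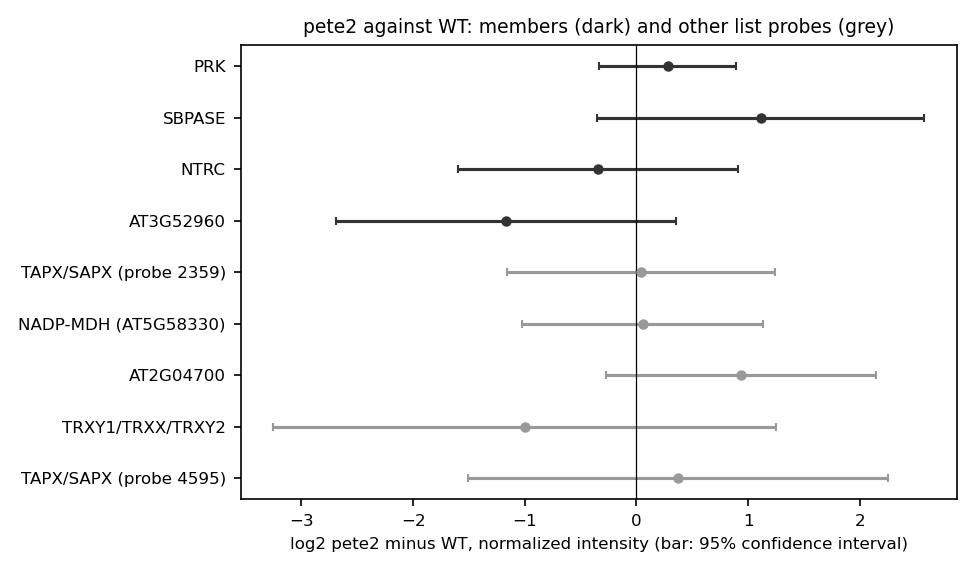
Log2 difference of normalized intensity, pete2 minus WT (horizontal axis), with 95% confidence intervals for PRK, SBPASE, NTRC and AT3G52960 (dark) and 5 other probes of the gene lists (grey, where TRXY1/TRXX/TRXY2 is the probe of TY1, THX and ty2). All 9 intervals include 0, and the narrowest is that of PRK, -0.33 to 0.89.

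Because the samples were not on 1 scale, PRK, NTRC and AT3G52960 were also compared by percentile rank, the position of the probe among all probes of its own sample. For SBPASE the rank is not read as a level, since the rank of a value at 0 is set by the number of zeros in its sample. None of the 3 ranks passed the test, while 14.9% of all tested probes did. That share counts probes with zeros, SBPASE among them (exact permutation p = 0.00649, Benjamini-Hochberg 0.0435). Most SBPASE values were at 0, so its pass does not show a change in its level.

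PRK ranked at 95.4% ± 0.813 in pete2 and 94.2% ± 2.64 in WT (SD, n = 6 each, exact permutation p = 0.361). It ranked at 90.4% or higher in every sample, and the lowest ranks were those of WT samples 5 and 6, 90.4% and 91.2%. NTRC ranked at 42.7% ± 17.6 in pete2 and 44.5% ± 8.40 in WT (SD, n = 6 each, exact permutation p = 0.814). Its ranks ran from 22.9% to 70.3% in pete2, with samples 3 and 4 lowest and sample 6 highest, and from 36.7% to 58.7% in WT. AT3G52960 ranked at 23.0% ± 8.67 in pete2 and 29.95% ± 6.14 in WT (SD, n = 6 each, exact permutation p = 0.177). Its lowest ranks, 10.8% and 14.3%, were those of pete2 samples 4 and 6, where it was at 0. Ranks also shift with the number of zeros in a sample, which was higher in pete2 samples 3 to 6.

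**Figure D3:**
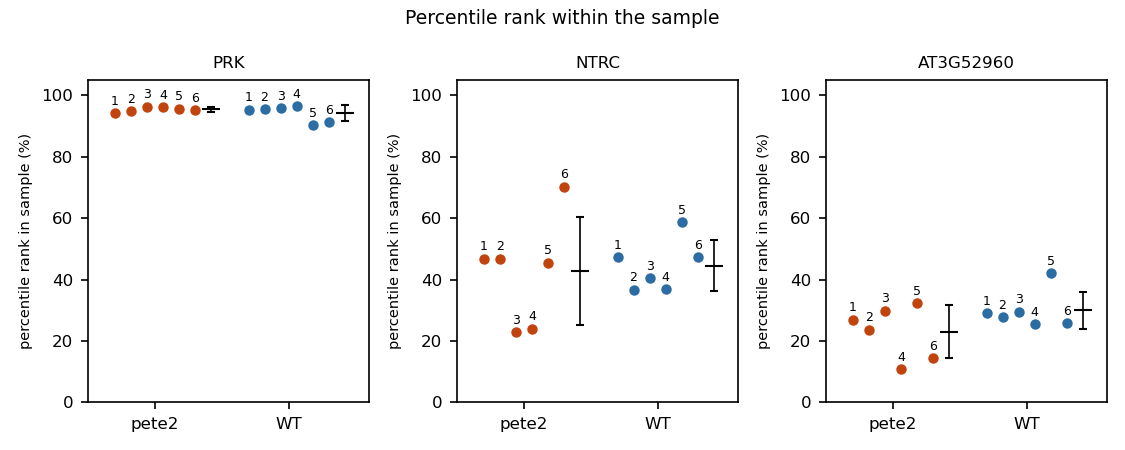
Percentile rank within the sample (%, from 0) of PRK, NTRC and AT3G52960 in each numbered pete2 and WT sample, with mean and SD (n = 6) as bars. PRK stays at 90.4% or higher in all 12 samples, while NTRC spans 22.9% to 70.3% in pete2.

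A ratio of deposited intensities within a sample does not depend on a factor common to the whole sample, and shows only whether 2 genes changed unequally. It was taken for PRK and NTRC, which were above 0 in every sample. The ratio of PRK to NTRC was 9.28 to 548 (median 30.2) in pete2 and 4.69 to 38.8 (median 21.7) in WT. The pete2 samples 3 and 4 had the highest ratios, 548 and 324, and WT samples 5 and 6 the lowest, 4.69 and 7.09. The 548 and 324 rest on the dimmest NTRC values, 0.00464 and 0.00769, for which no background level is known, so their size is uncertain. On the log2 scale the ratio was 5.57 ± 2.58 in pete2 and 3.98 ± 1.20 in WT (SD, n = 6 each), a difference of 1.59 that did not pass (exact permutation p = 0.229, Benjamini-Hochberg 0.416 over 55945 ratios of probes). Of these ratios 18.3% passed. Without WT samples 5 and 6 the difference was 0.86 (exact permutation p = 0.524). Leaving out 1 sample gave 0.88 (without pete2 sample 3) to 2.06 (without pete2 sample 1).

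These genes were then set beside others of their pathways that had a probe. The lists held 25 genes of the Calvin cycle, 15 plastid thioredoxins and their reductases, 15 genes of plastid peroxide and superoxide removal and 8 other plastid enzymes regulated by thioredoxin. Only 11 of these genes had a value, through 9 probes, and 4 of the 9 were PRK, SBPASE, NTRC and AT3G52960 themselves. In the Calvin cycle no gene beyond PRK and SBPASE was measured. Of the 9 probes 0 rose and 0 fell, against the 11.2% of all probes that passed, and 6 had a positive log2 difference. The smallest unadjusted limma p among them was 0.118 (AT2G04700), so 0 of the 9 were under 0.05. Their median log2 difference was 0.06, against -0.01 over all probes tested.

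Among the thioredoxins and reductases, the platform's probe table names AT2G04700 by locus only, and the gene list labels it FTRB. AT2G04700 had deposited intensities of 0.169 to 0.369 (median 0.305) in pete2 and of 0.0878 to 0.405 (median 0.236) in WT. Its log2 difference was 0.94 ± 0.558 (SE, adjusted p = 0.313), and its lowest WT values were those of samples 5 and 6 (0.112 and 0.0878). A probe shared by the thioredoxin genes TY1, THX and ty2 gave -1.001 ± 1.04 on the log2 scale (SE, adjusted p = 0.554). It was at 0 in pete2 samples 3 and 6 and highest in WT samples 5 and 6 (0.293 and 0.372). Over the deposited intensities of the 9 list probes, WT samples 5 and 6 were both lowest of their group for 3 (PRK, AT2G04700 and a probe of TAPX and SAPX) and both highest for 3 (NTRC, the shared thioredoxin probe and the other probe of TAPX and SAPX). After normalization NTRC and that last probe were no longer highest in both samples. What sets these samples apart was not tested.

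The stromal and thylakoid ascorbate peroxidase genes SAPX and TAPX, whose products remove hydrogen peroxide, shared 2 probes. Their log2 differences were 0.04 ± 0.553 and 0.37 ± 0.867 (SE, adjusted p = 0.973 and 0.810). The 2 probes ordered the samples differently. In pete2 the first was lowest in sample 1 (0.0329) and the second in sample 6 (0.00523), while in WT the second was lowest in sample 5 (0.0166). NADP-dependent malate dehydrogenase (AT5G58330), which exports reducing power from the stroma as malate and is activated by thioredoxin, had intensities of 0.00666 to 0.433 (median 0.348) in pete2 and of 0.212 to 0.409 (median 0.265) in WT. Its log2 difference was 0.06 ± 0.498 (SE, adjusted p = 0.956). Without samples 5 and 6 of both groups it was 0.586 (adjusted p = 0.114), and without those of WT alone -0.154. Without those of pete2 alone it was 0.78 (adjusted p = 0.0681), a rise fixed by leaving out the lowest pete2 values. The pete2 samples 5 and 6 were lowest, at 0.0553 and 0.00666, and the other 4 lay within or just above the WT range. After normalization these 4 lay above the highest WT sample.

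The genes whose profile over the 12 samples came nearest to PRK, NTRC and AT3G52960 were taken from the single-gene probes above 0 in every sample. Likeness was the mean absolute difference between centred log2 values, so a smaller value means a closer profile. For PRK the nearest were AT3G58610 (0.210), AT1G27610 (0.246) and the thiamine synthesis gene THIC (0.268), against a median of 0.738 over 334 probes. For NTRC they were CHLM (0.407), which encodes a methyltransferase of chlorophyll synthesis, AT4G40080 (0.485) and AT2G30320 (0.546), against a median of 0.899. For AT3G52960 they were AT4G33480 (0.465), AT4G14380 (0.603) and AT1G49850 (0.642), against a median of 1.10 over 335 probes. Of these 9 genes only AT1G49850 passed the comparison of pete2 and WT, with a log2 difference of -1.38 (adjusted p = 0.00274), where 12.2% of all single-gene probes passed. Profiles were centred over all 12 samples, so a shared difference between the groups counted toward likeness. That pass is therefore no separate evidence about AT3G52960, whose own profile held 2 pete2 values at the floor. All profiles share the same arrays and their scaling, so these distances describe the 12 samples only.

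**Figure D4:**
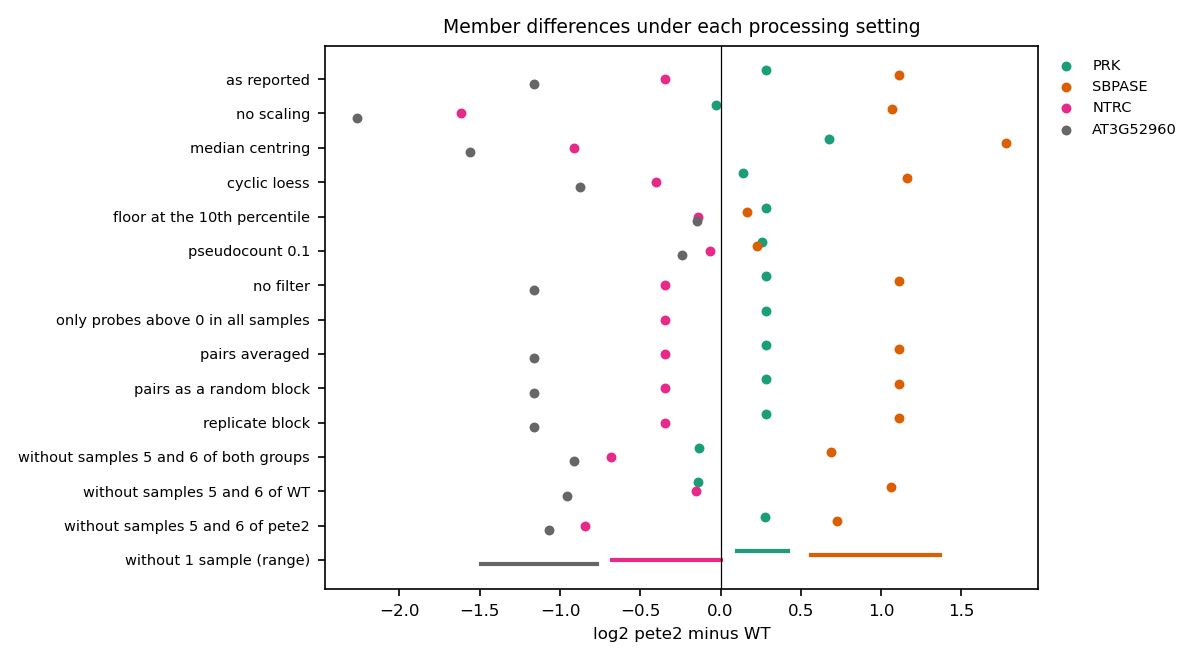
Log2 difference of PRK, SBPASE, NTRC and AT3G52960, pete2 minus WT (horizontal axis), under each way of processing the intensities (rows), with the range over the repeats without 1 sample as a line. Wherever they have a value, AT3G52960 is below 0 and SBPASE, whose WT samples are all at 0, is above 0, while PRK and NTRC have values on both sides of 0.

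The log2 difference of AT3G52960 was negative under every way of processing that gave it a value, from -2.27 to -0.15, as the plot of the settings shows, although none of these values passed the test. That of SBPASE ran from 0.17 to 1.78, and its sign was fixed by the zeros in all WT samples. Neither gene has a value where only probes above 0 in all samples were kept. PRK ran from -0.14 to 0.68 and NTRC from -1.62 to 0.0021.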

How the data were processed

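Transcripts of 6 pete2 and 6 WT samples were measured on an array of 3439 probes, and groups were taken from the sample titles. The authors deposited 1 linear intensity per probe and sample. The sources used here do not give the scanner, the background correction, the scaling or the genome build, and no coordinates are printed. The number of arrays limits the precision. Genes were named from the platform's probe table, matched to RefSeq (TAIR10.1) by gene ID.

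Intensities were quantile normalized. A floor of 0.00560, the 1st percentile of the normalized values above 0, replaced zeros and lower values before log2. Of the probes, 118 had no value above 0 and were dropped. The other 3321 went into limma (version 3.58.1, R 4.3.3, lmFit and eBayes with trend) as 12 separate samples, with Benjamini-Hochberg adjustment over all of them and a threshold of 0.05. The calculation was tested on simulated data in which the 12 samples were independent and no value was at 0. That test therefore does not cover close pairs of samples or values at 0. Single values, ranks and ratios of deposited intensities were compared with two-sided exact permutation tests of group means, for which 0.00216 is the smallest p, adjusted over all probes or ratios of probes. Named genes were PRK, SBPASE, NTRC and AT3G52960, every other probe of the gene lists, and the 3 probes nearest to each of the first 4 (not for SBPASE, at 0 in most samples). A further member chosen by the same rule is not reported here. A probe of several genes counted for a list only if all of them were in it, so 3 probes that also list other genes were left out. Alternatives covered scaling, floor, filter, pairs of samples, a replicate block and left-out samples. The genes and lists were chosen with earlier results of these data known.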

Additional observations from a re-analysis of the deposited data

Results flagged for a closer look

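AT3G52960 had 1 sample far from the others of its group. Its deposited intensity in WT sample 5 was 0.137, and the next highest WT sample was at 0.0682. The gap was 0.799 of the group's range, which is past Dixon's 95% critical value. About 1 group in 20 would pass by chance, and 1 of the 17 groups examined (9 probes, with SBPASE in WT left out because all its values were 0) had one. Without WT sample 5 alone the AT3G52960 difference in deposited intensity was -0.0348 (exact permutation p = 0.0303, Benjamini-Hochberg 0.140). Without WT samples 5 and 6 it was -0.0324 (exact permutation p = 0.0571), against -0.0479 over all 12 samples.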

How the results depend on the processing

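None of the 4 genes passed the limma test under any alternative tried. The adjusted p ran from 0.328 to 0.958 for PRK, 0.117 to 0.688 for SBPASE, 0.262 to 1 for NTRC and 0.0802 to 0.690 for AT3G52960. Among all probes 372 were called over 12 samples, 168 with the pairs as a random block, 11 with pairs averaged and 287 to 423 without 1 sample. Alternatives that left out samples 5 and 6 of a single group, or 1 sample from an exact test, were chosen after seeing the data. The cause of these differences was not tested. For PRK the sign turned without scaling (-0.0283), without samples 5 and 6 of both groups (-0.132) and without those of WT (-0.141), and the leave-one-out range was 0.103 to 0.423. For NTRC it turned without pete2 sample 3 (0.00210, leave-one-out range -0.674 to 0.00210).

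Of the other list probes, which passed under no alternative, the sign turned as follows. Without scaling the log2 difference was -0.552 and -0.968 for the TAPX/SAPX probes and -0.986 for NADP-dependent malate dehydrogenase. With median centring the second TAPX/SAPX probe had -0.262 and malate dehydrogenase -0.280, and malate dehydrogenase had -0.344 with cyclic loess. The second TAPX/SAPX probe had -0.0732 with the higher floor and -0.0459 with a pseudocount of 0.1. Without samples 5 and 6 of both groups the TAPX/SAPX probes had -0.408 and -0.425, AT2G04700 -0.0694 and the shared thioredoxin probe 0.129. Without those of pete2 the first TAPX/SAPX probe had -0.367, and without those of WT the second had -0.892 and malate dehydrogenase -0.154. Leave-one-out ranges were -0.172 to 0.576 and -0.400 to 0.694 for the TAPX/SAPX probes and -0.153 to 0.474 for malate dehydrogenase.

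For the deposited AT3G52960 difference the leave-one-out range was -0.0559 to -0.0348, and it passed once, without pete2 sample 1 (adjusted p = 0.0283). Sample 1 was the only pete2 sample above the lowest WT sample. Leaving it out therefore separated the groups and fixed the exact permutation p at its smallest possible value, 0.00216. The rank difference of NTRC was 2.39 and that of PRK -0.395 without WT samples 5 and 6, and leave-one-out ranges were -7.33 to 2.14 for the NTRC rank and -0.417 to 0.101 for deposited PRK.

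With the replicate number as a block, 324 probes were called, and none of the 4 genes passed (adjusted p = 0.488 for PRK, 0.301 for SBPASE, 0.681 for NTRC and 0.257 for AT3G52960). Deviations of same-numbered samples from their group means correlated between 0.0198 and 0.283 across probes, and pairs 1 and 2 stayed under 0.1, so the numbers were not taken to pair the samples. The pete2 samples 3, 4, 5 and 6 correlated best with the WT sample of their own number, and 1 and 2 with WT samples 5 and 6.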
